A study of Mus musculus with 15 samples.

Results

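The step from 20 to 100 µg/mL of Jakyak-gamcho-tang (JGT) was examined in C2C12 myotubes, over every expressed gene. JGT is a hot-water extract of equal weights of peony root and licorice root. C2C12 is an established mouse myoblast line whose cells leave the cell cycle and fuse into multinucleated myotubes in low-serum medium. The members were the 3 JGT 100 µg/mL and 3 JGT 20 µg/mL libraries, 6 of the 15 libraries of the series, and the 14461 of 42807 listed gene symbols that had enough counts for a test. All cultures were differentiated for 6 days and then kept for 24 h under their condition before total RNA was taken. The other 9 libraries, 3 per group, were JGT 500 µg/mL, vehicle (0.1% DMSO) and non-treated. The labels give 500 µg/mL as the highest dose tolerated, set at 80% viability, so 20 and 100 µg/mL lie below it. The labels name no dexamethasone for any of these libraries. If every dose was diluted from the described stock, DMSO would be 0.004% at 20 µg/mL, 0.02% at 100 µg/mL and 0.1% at 500 µg/mL, and JGT dose and DMSO then cannot be told apart between doses. Nothing in the labels says that the 3 libraries of a dose came from separate cultures, so the spread behind each p-value is that of libraries and could be technical.

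Plant extracts act on cells through several receptors and sensors that change transcription. The aryl hydrocarbon receptor (AhR) binds planar aromatic molecules, pairs with ARNT and switches on genes of foreign-compound metabolism such as Cyp1a1, Cyp1b1 and Aldh3a1. NRF2 is freed when electrophiles modify its inhibitor KEAP1, and it raises glutathione, quinone-reducing and iron-storage genes. Myotube nuclei no longer divide, so transcripts of replication and mitosis in such a culture come mainly from the unfused mononucleated cells that remain beside the myotubes.

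Between 20 and 100 µg/mL few genes were called, and most of their differences were small. A gene is called here when its Benjamini-Hochberg adjusted p in edgeR's quasi-likelihood test, fitted over all 15 libraries, is below 0.05. By that rule 62 of the 14461 genes were called (0.429%), 43 higher at 100 µg/mL (0.297%) and 19 lower (0.131%). The genes called higher included enzymes of foreign-compound metabolism (Aldh3a1, Cyp1b1, Fmo1, Gstm1), the estrogen-induced gene Greb1 and secreted signals such as Grem1 and Inhbb. Those called lower included matrix and contractile genes (Tnc, Col8a2, Actg2, Tagln) and cell-division genes (Mcm5, Anln, Smc2). Of the 62, 10 passed 1.5-fold, all of them higher, and 2 passed 2-fold, Gbp6 and Gbp9, both near 1 CPM (counts scaled per library size, with TMM factors). The smallest difference called was log2 0.17 in size. Over all tested genes the median log2 fold change was −0.00156, and 49.1% lay above 0. The 3 libraries of one dose lay entirely above the 3 of the other for 1106 genes higher (7.65%) and 1184 lower (8.19%), and all 62 called genes were among them. At an unadjusted p below 0.05 there were 1091 genes.

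The number called depended on which libraries were in the fit. Leaving out 1 library also makes its dose group smaller, and smaller size and uneven spread were not told apart. With 1 of the 6 libraries left out, between 16 and 26 genes were called higher and between 3 and 15 lower, and each of the 6 had this effect: 21 and 5 without JGT 100 replicate 1, 18 and 4 without replicate 2, 26 and 15 without replicate 3, 24 and 10 without JGT 20 replicate 1, 16 and 5 without replicate 2, and 16 and 3 without replicate 3. JGT 500 replicate 2, which lies apart from its group, also entered the fitted spread, and without it 132 genes were called higher and 70 lower. A fit of the 6 libraries alone called 124 higher and 67 lower. Through all of 27 alternative settings the sign of the 62 genes did not change. The 17 that stayed called whichever of the 6 libraries was left out were 4632428N05Rik, Akr1c14, Aldh3a1, Cyp1b1, Gbp9, Greb1, Grem1, Gstm1, Il1rn, Lpl, Pi15, Slc5a5, Thbs2 and Xdh, all higher, and Gfra1, Tagln and Tnc, all lower. Each of the other 45 lost its call in at least 1 of these leave-outs. The 6 libraries held 29.2 to 36.9 M expected counts. JGT 100 libraries were deeper than JGT 20 libraries on average, 35.4 ± 2.35 against 31.7 ± 4.13 M (SD, n = 3; two-sided exact permutation p = 0.2, where 0.1 is the smallest possible). JGT 20 replicate 1, at 36.4 M, was as deep as the JGT 100 libraries and lay among them on the first principal component of the 6, at −4.41 against −2.82, −6.72 and −0.425, while the other JGT 20 libraries lay at 8.75 and 5.62. The share of mitochondrially encoded counts was 5.18 ± 0.181% at 100 µg/mL and 4.73 ± 0.342% at 20 µg/mL (exact permutation p = 0.2).

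**Figure D1:**
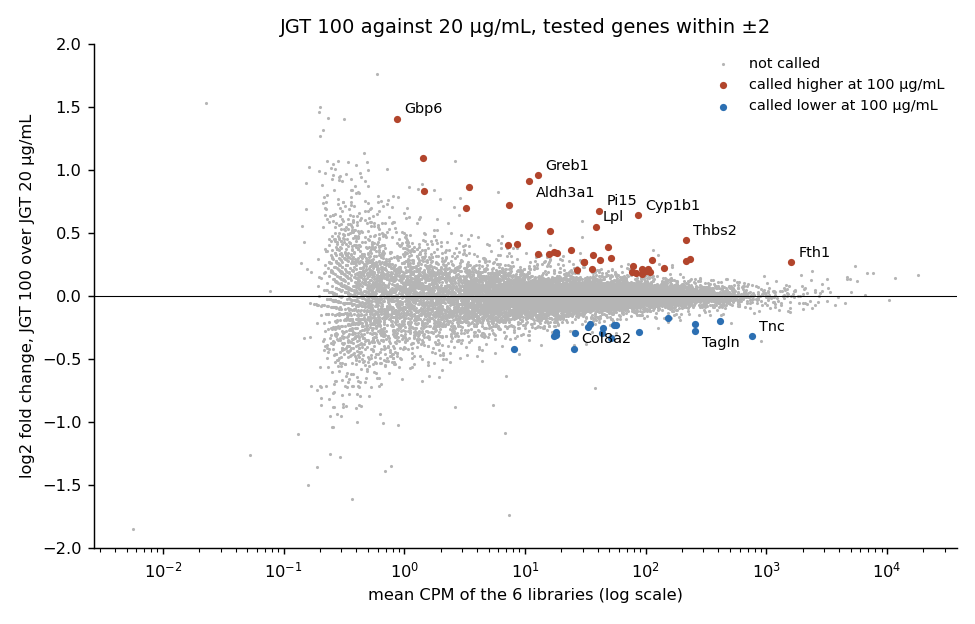
Every tested gene by its mean CPM over the 6 libraries (log axis) and its log2 fold change from 20 to 100 µg/mL; red and blue points are the 43 and 19 genes called higher and lower, grey points the genes not called. Axis limits leave out 16 genes beyond 2 in size, none of them called. The called falls reach −0.42, whereas the called rises reach 1.41 (Gbp6, at low counts) and 0.96 (Greb1).

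Cyp1b1 and Greb1 had the smallest adjusted p-values of all, and the stretches of DNA just before their transcription starts are shown because the first is a known AhR target and the second is known from estrogen response. The letters are from the RefSeq promoter table for GRCm38.p6, 250 bases ending at the base before the start, 5′ to 3′ on the gene's own strand. Greb1 lies on the minus strand of chromosome 12, and its window is chr12:16800887-16801136. Cyp1b1 lies on the minus strand of chromosome 17, and its window is chr17:79715062-79715311. Capitals mark matches, on either strand, to GCGTG, the core that AhR and ARNT bind, which reads CACGC on the other strand. The Cyp1b1 window was added after its values were seen.
Greb1: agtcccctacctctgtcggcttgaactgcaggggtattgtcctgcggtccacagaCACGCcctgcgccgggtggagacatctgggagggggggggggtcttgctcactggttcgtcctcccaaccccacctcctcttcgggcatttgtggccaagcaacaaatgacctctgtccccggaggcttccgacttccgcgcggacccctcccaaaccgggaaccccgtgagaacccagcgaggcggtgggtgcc
Cyp1b1: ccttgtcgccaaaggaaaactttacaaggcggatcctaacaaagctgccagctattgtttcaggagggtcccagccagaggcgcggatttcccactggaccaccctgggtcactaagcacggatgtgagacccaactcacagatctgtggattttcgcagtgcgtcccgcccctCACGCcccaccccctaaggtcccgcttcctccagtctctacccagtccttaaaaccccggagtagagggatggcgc
Each window held 1 match, 195 bases before the start in Greb1 and 76 bases before it in Cyp1b1. The core is common: 4598 of the 10139 tested genes with a RefSeq entry (45.4%) held it in a window of the same length. Among the called genes with an entry it stood before 10 of 26 called higher (38.5%) and 4 of 16 called lower (25%). The other motifs searched on both strands were TGACNNNGC, the core of the antioxidant response element, found before 1 of the 26 and 3 of the 16 against 12.3% of all; the E-box CACGTG, found before 2 and 1 against 8.48%; TTTGAA, the cell-cycle homology region, found before 2 and 2 against 10.3%; and the palindromic estrogen response element, which no window of the 10139 held. The windows of Slc5a5, Col23a1 and Col8a2, chosen by the naming rule with Greb1, held none of the 5 motifs. Greb1 and Cyp1b1 held none but the GCGTG core. Aldh3a1 had no entry.

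Genes of the AhR battery made up 3 of the 12 largest rises among called genes at 5 CPM or more whose doses did not overlap: Aldh3a1, Cyp1b1 and Ugt1a6a. Cyp1b1, a P450 enzyme acting on polycyclic aromatics and estrogens (gene at chromosome 17, 79701537 to 79715061, minus strand, GENCODE M21 on GRCm38), was at 69.6, 69.4 and 62.1 CPM in the JGT 20 libraries and at 106, 107 and 101 CPM in the JGT 100 libraries. The lowest JGT 100 library was far above the highest JGT 20 library, and the log2 fold change was 0.64 ± 0.045 (SE; edgeR adjusted p = 1.13e-07). Aldh3a1 (chromosome 11, 61207537 to 61218421, plus strand), which oxidises aldehydes, stood at 7.79, 7.52 and 7.00 CPM and then 13.9, 15.2 and 13.02 CPM, a 1.88-fold rise with no overlap (adjusted p = 3.02e-06). Ugt1a6a, which joins glucuronic acid to phenols, gave 6.91, 5.85 and 5.91 against 8.52, 8.14 and 8.16 CPM (log2 0.40 ± 0.083, adjusted p = 0.0283), and its exons shared with the other Ugt1a genes make the assignment of its counts uncertain. Cyp1a1, the most AhR-dependent P450, was all but absent: the libraries held 0, 0 and 0 counts at 20 µg/mL and 0, 1 and 1 at 100 µg/mL, too few for a fold, while the JGT 500 libraries held 59, 56 and 40. Without Cyp1a1 the AhR list had 12 tested members, of which 3 were called higher (background 0.297%) and 0 lower (0.131%). Of the 12, 8 lay above 0 and 4 below. The median log2 fold change of the 12 was 0.13, against −0.00156 for all genes. Without overlap 6 of the 12 were higher (background 7.65%) and 0 lower (8.19%). Nqo1, a quinone reductase on both the AhR and the NRF2 list, was at 3.56, 4.63 and 4.25 and 5.32, 5.58 and 5.54 CPM, non-overlapping but not called (log2 0.41 ± 0.13, adjusted p = 0.236).

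NRF2 targets were slightly higher at 100 µg/mL in nearly every member. Of the 38 tested, 34 lay above 0, the median log2 fold change was 0.11, and 20 were higher with no overlap between doses (background 7.65%) against 1 lower (8.19%). Only 3 were called, all higher (background 0.297%): Gstm1, Fth1 and Ugt1a6a, the last of which is also on the AhR list. With JGT 500 replicate 2 left out 9 were called, where 132 of all tested genes were called higher and 70 lower. Gstm1, a glutathione S-transferase, gave 44.2, 40.4 and 42.5 CPM at 20 µg/mL and 56.7, 55.1 and 54.7 CPM at 100 µg/mL (log2 0.39 ± 0.057, adjusted p = 0.00164), and counts of its close relatives may be split with it. Fth1, the ferritin heavy chain that stores iron, gave 1562, 1422 and 1405 and then 1686, 1825 and 1772 CPM (log2 0.27 ± 0.044, adjusted p = 0.00442); Fth1 has processed copies in the genome that could share its reads. In both genes the groups did not overlap. Among members not called, Hmox1, which breaks down heme, was at 60.7, 59.4 and 52.7 and 67.4, 70.4 and 66.5 CPM (adjusted p = 0.287). Gsta4, which conjugates lipid aldehydes, was at 8.54, 9.02 and 8.94 and 10.3, 10.5 and 9.60 CPM (adjusted p = 0.586), against a mean of 64.2 ± 5.17 CPM at 500 µg/mL (SD, n = 3). The same list taken library by library put all 3 JGT 100 libraries above all 3 JGT 20 libraries: the median deviation of its members from their mean over the 6 was 0.0385, 0.0748 and 0.0661 (log2) at 100 µg/mL and −0.0502, −0.0564 and −0.0369 at 20 µg/mL.

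Other genes called higher act on foreign compounds, steroids, purines or lipids; this grouping of called genes by role was made after their values were seen. Akr1c14, an aldo-keto reductase of steroid metabolism, was at 2.54, 2.59 and 2.17 CPM and 4.43, 4.48 and 4.41 CPM (log2 0.86 ± 0.11, adjusted p = 0.000199). Fmo1, a flavin monooxygenase, was at 13.5, 13.1 and 13.2 and 20.3, 20.2 and 16.5 CPM, with replicate 3 of JGT 100 the lowest of its group but still above every JGT 20 library (1.43-fold, adjusted p = 0.0179). Xdh, xanthine dehydrogenase, which carries out the last steps of purine breakdown, went from 8.87, 8.85 and 8.33 to 13.4, 12.3 and 12.9 CPM (1.48-fold, adjusted p = 0.000208). In none of these 3 genes did the doses overlap, which held for all 62 called genes. Lpl, the lipase that frees fatty acids from lipoproteins, went from 32.7, 31.4 and 29.6 to 48.4, 45.7 and 43.4 CPM (1.47-fold, adjusted p = 5.07e-06). It was the 1 called member of 28 tested on the list of fatty acid synthesis and lipid storage, whose median log2 fold change was −0.00326. Lpl is also made by adipocytes. The summed level of the 12 adipocyte markers, Lpl among them, was 58.2 to 60.5 CPM at 20 µg/mL and 73.1 to 76.1 CPM at 100 µg/mL (here and for the other marker sums, scaled by library totals alone). Without Lpl the other 11 summed to 25.7 to 30.1 and 27.9 to 30.8 CPM, overlapping. Of the 12 markers 4 had no count in any of the 6 libraries; the part of adipocyte-like cells in the result was not tested. Slc5a5, the sodium-iodide symporter, gave 6.77, 5.24 and 4.59 and 9.45, 9.40 and 8.80 CPM (1.65-fold, adjusted p = 0.00164), with JGT 20 replicate 1 the highest of its group. Enpep, a membrane aminopeptidase, and Mgam, a maltase-glucoamylase, were called higher by log2 0.83 and 0.24; Enpep was at about 1 to 2 CPM.

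Greb1 had the largest rise among called genes at 5 CPM or more. Greb1, an estrogen-receptor cofactor that is itself induced by estrogen (chromosome 12, 16670615 to 16800886, minus strand), was at 9.39, 8.37 and 8.36 CPM at 20 µg/mL and at 17.2, 16.8 and 16.96 CPM at 100 µg/mL. The JGT 100 libraries lay close together and far above the JGT 20 libraries, a 1.95-fold difference (log2 0.96 ± 0.072, SE; adjusted p = 1.82e-07). It was the only called member of the 13 tested genes on the list of estrogen receptors and targets, whose median log2 fold change was 0.044 (from 0.00122 to 0.0894 with 1 library left out). On that list 8 members lay above 0 and 5 below. Without overlap 4 were higher (background 7.65%) and 2 lower (8.19%). Esr1, the estrogen receptor alpha gene, was at 14.5, 13.6 and 14.6 and 18.9, 17.8 and 14.9 CPM and was not called (log2 0.27, adjusted p = 0.119). Igfbp4, an estrogen-responsive IGF-binding protein, was at 44.8, 50.9 and 51.04 and 57.9, 53.7 and 57.7 CPM and was not called (log2 0.21, adjusted p = 0.196).

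Some of the genes called higher encode secreted signals, receptors or inhibitors of signalling, again grouped after their values were seen. Inhbb, the beta B subunit of activin and inhibin, was at 88.4, 87.4 and 84.4 CPM and 101, 98.5 and 103 CPM (log2 0.22 ± 0.034, adjusted p = 0.00346). Grem1, an antagonist of BMP ligands, was at 209, 205 and 210.5 and then 257, 256 and 255 CPM (log2 0.30 ± 0.048, adjusted p = 0.00361), with each group within a few CPM. These were the 2 called among 31 tested members of the IGF and TGF-beta family list (median 0.00753, from −0.0214 to 0.0198 with 1 library left out), on which Igf1, the growth factor, was at 44.8, 44.99 and 40.1 and 40.3, 41.1 and 41.1 CPM, overlapping groups. Gdf5, a BMP-family ligand outside that list, was called higher by log2 0.33. Il1rn, the secreted antagonist of interleukin-1, rose from 8.78, 9.12 and 7.58 to 13.02, 12.5 and 11.9 CPM (log2 0.55 ± 0.088, adjusted p = 0.00343) and was the 1 called of 19 tested chemokine and NF-kB feedback genes. Called higher by smaller amounts were Il6ra, the interleukin-6 receptor chain (log2 0.33), Socs2, a suppressor of cytokine signalling (0.19), the kinase Pim1 (0.21) and Ikbkg, the NEMO subunit of the IkB kinase (0.19). The interferon-inducible GTPases Gbp6 and Gbp9 gave the highest folds and the fewest counts: Gbp9 was at 0.994, 0.817 and 0.884 and 1.85, 2.34 and 1.63 CPM (2.14-fold, adjusted p = 0.00346) and Gbp6 at 0.414, 0.408 and 0.612 and 1.29, 1.10 and 1.41 CPM (adjusted p = 0.033). Guanylate-binding genes are near copies of one another, so their reads may be shared. None of the 26 tested interferon-response and antigen-presentation genes on the fixed list was called.

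Pi15 and Thbs2 led the genes of other secreted and matrix proteins that were called higher. Pi15, a secreted peptidase inhibitor, was at 34.8, 30.97 and 29.1 and 52.5, 48.9 and 50.4 CPM (log2 0.68 ± 0.061, adjusted p = 3.02e-06). Thbs2, thrombospondin 2, a matrix protein that modulates cell contacts, was at 187, 178 and 179 and 257, 231 and 254 CPM (log2 0.44 ± 0.041, adjusted p = 3.02e-06). In both, every JGT 100 library exceeded every JGT 20 library by a wide margin. Dcn, the proteoglycan decorin, was at 214, 196 and 179 and 247, 241 and 229 CPM (adjusted p = 0.033), a narrower gap. Htra1, a secreted protease, Chst11, which sulfates chondroitin chains, and Thsd4, a thrombospondin-repeat matrix protein, were called higher by log2 0.22, 0.20 and 0.34. Bglap2, an osteocalcin gene, was at 7.73, 7.28 and 7.10 and 11.02, 9.32 and 9.24 CPM (1.33-fold, adjusted p = 0.0362), with near copies Bglap and Bglap3 that make its counts uncertain. Other genes called higher included Fbxo40, a muscle ubiquitin-ligase subunit (log2 0.30), the transcription factor Klf5 (0.22), the cyclic AMP phosphodiesterase Pde7b (0.70), the phosphatase Dusp18 (0.19), the ribonuclease Rnaset2a (0.17), the junction protein Cgnl1 (0.28), and Gpr137b, Evi2a, Fam167a, Scml4, Gm14635 and 4632428N05Rik, between 0.27 and 0.36.

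**Figure D2:**
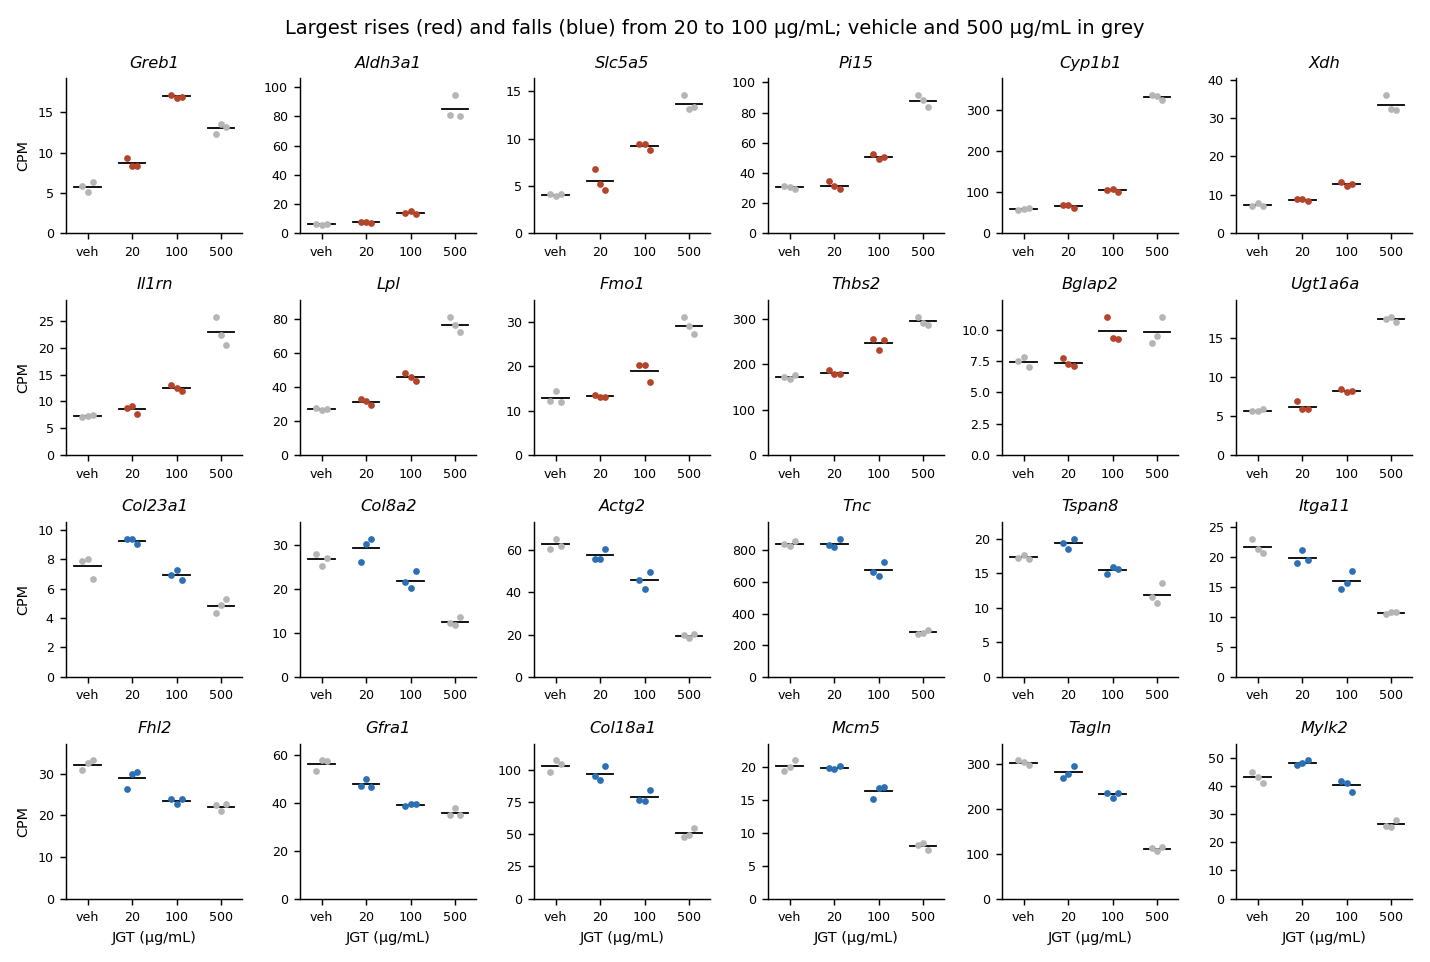
CPM in each library of vehicle (veh) and JGT 20, 100 and 500 µg/mL for the 12 largest rises (red) and 12 largest falls (blue) from 20 to 100 µg/mL among called genes at 5 CPM or more without overlap; points are libraries, bars group means, and each panel has its own axis from 0. The coloured points at 100 µg/mL lie clear of those at 20 µg/mL in every panel because the choice of genes requires it. Greb1, with means of 16.99 ± 0.163 and 13.05 ± 0.606 CPM at 100 and 500 µg/mL (SD, n = 3), is lower at 500 than at 100 µg/mL.

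Several of the genes called lower encode extracellular matrix and cell-surface proteins, a grouping made after their values were seen. Tnc, the matricellular protein tenascin C (chromosome 4, 63959785 to 64047015, minus strand), was at 834, 819.9 and 875 CPM at 20 µg/mL and 661, 637 and 729 CPM at 100 µg/mL (log2 −0.32 ± 0.045, adjusted p = 0.00134). Col8a2, a short-chain collagen, was at 26.2, 30.3 and 31.5 and 21.5, 20.1 and 24.1 CPM (log2 −0.42 ± 0.073, adjusted p = 0.00988), and Col23a1, a collagen that spans the membrane, at 9.36, 9.39 and 9.00 and 6.92, 7.23 and 6.59 CPM (log2 −0.42 ± 0.086, adjusted p = 0.0281). These were the 2 largest falls by the naming rule, which itself requires that the doses do not overlap. Col18a1, a basement-membrane collagen, fell by 0.29 on the log2 scale, from 96.5 ± 5.54 to 79.1 ± 4.64 CPM (SD, n = 3; adjusted p = 0.0147). Itga11, the alpha chain of a collagen-binding integrin, fell from 19.9 ± 1.13 to 15.98 ± 1.46 CPM (adjusted p = 0.033). Tspan8, a tetraspanin, Postn, the matricellular periostin, Timp3, an inhibitor of matrix metalloproteinases, and Olfml2b, an olfactomedin-domain secreted protein, were called lower by log2 −0.32, −0.22, −0.19 and −0.17. On the extracellular matrix list, 47 members were tested, with 2 called higher (Thbs2 and Dcn), 3 lower (Tnc, Timp3 and Postn) and a median of −0.05. That median was −0.0182 without JGT 100 replicate 2 and −0.0237 without JGT 20 replicate 1. Of the 47 members 12 were lower without overlap (background 8.19%) against 2 higher (7.65%). Fmod, fibromodulin, was at 12.2, 12.2 and 11.01 and 9.60, 10.4 and 8.50 CPM, separate but not called (log2 −0.31, adjusted p = 0.174).

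Actin-cytoskeleton genes driven by serum response factor (SRF) were lower at 100 µg/mL in 20 of 21 tested members, by a median of log2 −0.09. Of the 21, 13 were lower without overlap (background 8.19%) and 0 higher. Tagln, transgelin, an actin-binding protein of smooth muscle (chromosome 9, 45929619 to 45936058, minus strand), was at 269, 278 and 295 CPM and 236, 225 and 236 CPM (log2 −0.27 ± 0.041, adjusted p = 0.00197). Actg2, the enteric smooth muscle actin, was at 55.9, 56.02 and 60.8 and 45.8, 41.7 and 49.6 CPM (log2 −0.33 ± 0.056, adjusted p = 0.00565). These 2 were the called members. With JGT 500 replicate 2 left out 5 were called, where 132 of all tested genes were called higher and 70 lower. Cnn2, a calponin, was at 202, 209 and 192 and 179, 178 and 179 CPM and not called (adjusted p = 0.0684). Fhl2, a LIM-domain cofactor outside the list, was called lower, from 28.9 ± 2.23 to 23.5 ± 0.647 CPM (SD, n = 3; adjusted p = 0.0306). The list's median deviation was −0.0611, −0.0451 and −0.0295 in the JGT 100 libraries and 0.0536, 0.0442 and 0.0549 in the JGT 20 libraries. Tagln, Actg2, Acta2 and Cnn1 are also on the list of fibroblast and smooth muscle markers. That list summed to 8070 to 8729 CPM at 20 µg/mL and 7689 to 8361 CPM at 100 µg/mL, overlapping, with 1 of 14 markers without a count. Without desmin (Des), which muscle fibres also make, the other 13 summed to 4408 to 4619 and 4009 to 4245 CPM, lower at 100 µg/mL with no overlap. Acta2 and Col1a1, at means of 2375 and 1272 CPM over the 6 libraries, weigh most in this sum. Of the 11 markers tested, 9 lay below 0, the median was −0.09, 2 were called lower, and 5 were lower (background 8.19%) and 1 higher (7.65%) without overlap. The part of such cells in the result was not tested. In bulk RNA, fewer cells of a type and less RNA per cell cannot be told apart.

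Most cell-division genes had lower values at 100 µg/mL, by small amounts, and few were called. Of the 40 mitosis genes tested, 38 lay below 0, the median log2 fold change was −0.18, and 33 were lower without overlap between doses (background 8.19%), with 0 higher (7.65%). Of the 34 DNA replication genes, all 34 lay below 0, with a median of −0.13, and 18 were lower without overlap. Only Anln among the former and Mcm5 among the latter were called. When JGT 500 replicate 2 was left out 14 mitosis genes and 2 replication genes were called, where 132 of all tested genes were called higher and 70 lower. With any 1 of the 6 libraries but JGT 100 replicate 3 left out, neither Anln nor Mcm5 was called. Mcm5, a subunit of the replicative helicase, was at 19.8, 19.7 and 20.2 CPM at 20 µg/mL and 15.1, 16.8 and 17.02 CPM at 100 µg/mL (log2 −0.29 ± 0.058, adjusted p = 0.0257). Anln, the cytokinesis scaffold anillin, was at 61.2, 61.4 and 62.6 and 51.1, 52.1 and 54.4 CPM (log2 −0.23 ± 0.043, adjusted p = 0.0147). Racgap1, which also acts in cytokinesis, and Smc2, a condensin subunit, were called outside the lists, by log2 −0.23 and −0.22. Top2a, the topoisomerase that untangles chromosomes, was at 74.3, 73.1 and 72.5 and 65.1, 63.96 and 65.04 CPM (log2 −0.18, adjusted p = 0.0677). Kif2c, a kinesin that takes microtubules apart at kinetochores, was at 13.5, 12.9 and 13.3 and 10.99, 11.1 and 11.1 CPM (adjusted p = 0.0748), and the proliferation marker Mki67 at 105, 104 and 97.4 and 86.6, 91.6 and 91.99 CPM (adjusted p = 0.0857). In each of these 3 the highest JGT 100 library was below the lowest JGT 20 library. Gins2 and Mcm7, of the helicase complex, were at means of 18.5 ± 0.886 and 41.4 ± 1.61 CPM at 20 µg/mL and 15.1 ± 0.620 and 36.9 ± 2.10 CPM at 100 µg/mL (SD, n = 3), and were not called (adjusted p = 0.121 and 0.215).

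Taken library by library, the mitosis list had a median deviation of 0.0953, 0.104 and 0.0618 (log2) in JGT 20 replicates 1, 2 and 3, and of −0.0905, −0.0634 and −0.0880 in the JGT 100 libraries. For DNA replication the values were 0.0330, 0.0540 and 0.0804 at 20 µg/mL and −0.0403, −0.0652 and −0.0697 at 100 µg/mL. In both lists the doses did not overlap. Left-out libraries moved the mitosis median only between −0.204 and −0.179, and the DNA replication median between −0.139 and −0.101. Scaling by library totals alone shifted the median of all genes to −0.0148 and gave 35 of 40 mitosis genes lower without overlap, where 10.2% of all genes were. Markers of the unfused cells were the 20 myoblast and reserve-cell markers, of which 1 had no count. They summed to 3668 to 3791 CPM at 20 µg/mL and 3523 to 3636 CPM at 100 µg/mL. Itga7, Itgb1 and Cdh15 had the highest means over the 6 libraries, at 1309, 1163 and 484 CPM, and weigh most in this sum. Whether myotubes also make them was not tested. Of the 16 members tested, 7 lay above 0 and 9 below, with a median log2 fold change of −0.0359 and none called. Without overlap 3 were higher (background 7.65%) and 2 lower (8.19%). With 1 library left out this median ran from −0.0511 to 0.0152. The part of unfused cells in the fall of division genes was not tested. Of the 15 tested cell-cycle exit genes, D-cyclins, CDK inhibitors and pocket proteins, none was called, and their median was 0.017. Histone genes, of which only 9 of 26 could be tested in these mRNA libraries, had a median of 0.025 with none called.

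**Figure D3:**
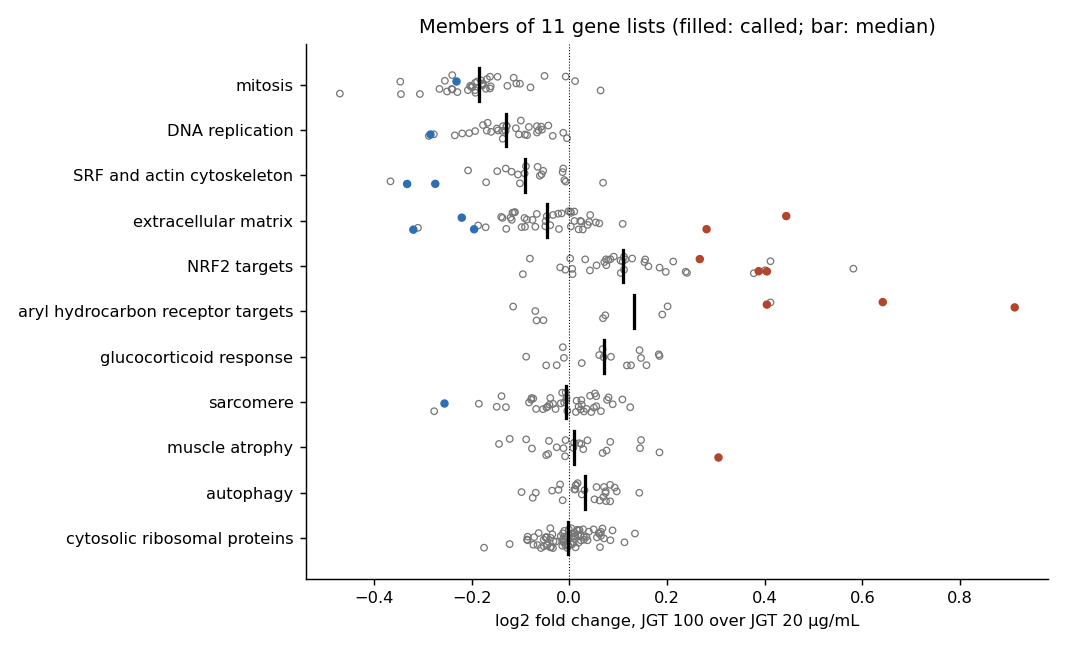
Log2 fold change from 20 to 100 µg/mL of each tested member of 11 gene lists; filled points are called, open points not called, and the black bar is the median (Cyp1a1 is left out). The mitosis and DNA replication points lie almost wholly left of 0 (medians −0.18 and −0.13) and the NRF2 points mostly right of 0 (0.11), while ribosomal and sarcomere genes scatter about 0.

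**Figure D4:**
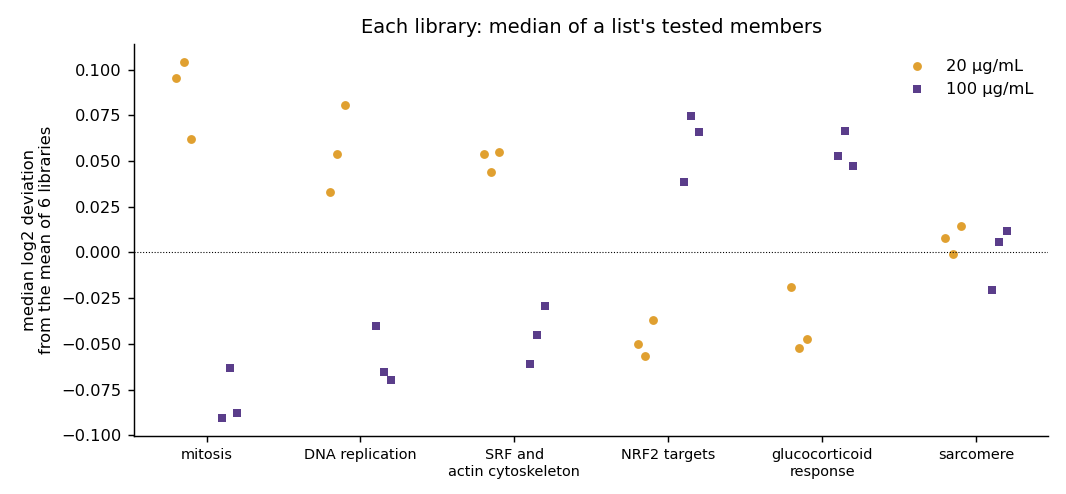
Median log2 deviation of the tested members of 6 lists in each of the 6 libraries, relative to the mean of the 6; circles are JGT 20, squares JGT 100. The 2 doses separate in the first 5 lists and overlap in the sarcomere list. They also separate in lists not shown whose median log2 fold change is near 0, such as muscle atrophy (0.00907) and arrestin and glucose genes (0.0247).

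Genes of the contractile apparatus of the myotubes were nearly all not called between these doses. Of 45 sarcomere genes 1 was called, the median log2 fold change was −0.00616, and 4 were higher (background 7.65%) and 8 lower (8.19%) without overlap. Mylk2, the skeletal myosin light chain kinase, was the called one, at 47.4, 48.2 and 49.1 and 41.9, 41.1 and 37.98 CPM (log2 −0.26 ± 0.049, adjusted p = 0.0168). Myot, the Z-disc protein myotilin, was at 25.4, 24.7 and 28.1 and 21.9, 20.4 and 22.2 CPM and not called (adjusted p = 0.0672). The embryonic myosin heavy chain Myh3 had overlapping groups, at 3768, 3830.1 and 3824 and 3455, 3661 and 3782 CPM, as did the fast myosin Myh4, at 418, 422 and 403 and 393, 409.8 and 403 CPM. Myog, the myogenin transcription factor that drives differentiation, was at 862 ± 19.1 and 856 ± 20.5 CPM (SD, n = 3; adjusted p = 0.994). The summed level of 12 myotube markers was 25865 to 25963 CPM at 20 µg/mL and 25419 to 25872 CPM at 100 µg/mL, with counts for all 12, and none of the 17 myogenic-factor and fusion genes was called. A non-called gene is not thereby shown to be equal at both doses: in simulated data the test found 40% of genes changed by log2 0.25 and 88% of those changed by 0.5.

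Genes linked to muscle wasting, which the series as a whole concerns, were mostly not called. Of the 24 tested atrophy genes, Fbxo40, the muscle F-box protein that targets the insulin receptor substrate, was the 1 called. It was at 45.1, 46.3 and 47.5 and 52.5, 59.6 and 59.3 CPM (log2 0.30 ± 0.055, adjusted p = 0.0112), and the list's median was 0.00907. Fbxo32, atrogin-1, was at 97.3, 96.96 and 100.2 and 109, 106 and 110.4 CPM, separate groups with a difference of log2 0.14 ± 0.037 (adjusted p = 0.1). Trim63, MuRF1, was at 28.6, 29.8 and 30.99 and 30.4, 30.6 and 30.6 CPM, overlapping. Of the 17 tested glucocorticoid-response genes, 6 had an unadjusted edgeR p below 0.05, against 1091 of all 14461 tested genes. The list had no called gene, a median of 0.07 and 7 members higher without overlap (background 7.65%). Its smallest p-values belonged to Glul, glutamine synthetase, at 122, 119 and 111 and 129, 137 and 127 CPM (adjusted p = 0.109), and Tsc22d3, the glucocorticoid-induced leucine zipper protein, at 62.1, 62.5 and 61.8 and 68.3, 72.4 and 65.3 CPM (adjusted p = 0.145). Its per-library medians were 0.0529, 0.0664 and 0.0475 at 100 µg/mL and −0.0190, −0.0525 and −0.0476 at 20 µg/mL, so the doses separated. They also separated in the atrophy list, at 0.0141, 0.0164 and 0.0179 against −0.0169, 0.00314 and −0.0113. Txnip, the thioredoxin-binding protein that curbs glucose uptake, was at 56.3, 55.8 and 55.4 and 54.9, 51.5 and 54.3 CPM (adjusted p = 0.899), while its mean in vehicle was 75.9 ± 2.37 CPM. Gfra1, the co-receptor of the neurotrophic factor GDNF, was called lower, at 47.2, 49.99 and 46.9 and 38.6, 39.6 and 39.5 CPM (log2 −0.29 ± 0.044, adjusted p = 0.00228); Gpr153, an orphan receptor, was the last gene called lower (log2 −0.25).

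The 62 genes were then read in libraries of other groups. JGT 500 µg/mL against vehicle shares no library with the step from 20 to 100 µg/mL, although one fit gave the spread for both, and JGT and vehicle libraries carry different sample-code series. Of the 43 genes higher at 100 µg/mL, 42 were also above vehicle at 500 µg/mL and 38 were called so (background 16.5%). All 19 lower genes were below vehicle and called lower there (background 16.8%). Over all tested genes the 2 differences had the same sign for 55.7%. Without JGT 500 replicate 2, 41 of the 43 and all 19 kept the sign, and 38 and 19 were called. The exception was Scml4, at log2 −0.03 in 500 against vehicle, joined by Socs2 without that replicate, both with differences near 0. The median difference between 500 µg/mL and vehicle was 0.87 for the 43 genes and −0.84 for the 19, against 0.33 and −0.29 for the step from 20 to 100 µg/mL. At 20 µg/mL against vehicle, which shares the JGT 20 libraries, 4 of the 43 were already called higher (background 0.173%), namely Greb1, Grem1, Inhbb and Ikbkg, and 1 of the 19 lower (0.152%), Gfra1.

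**Figure D5:**
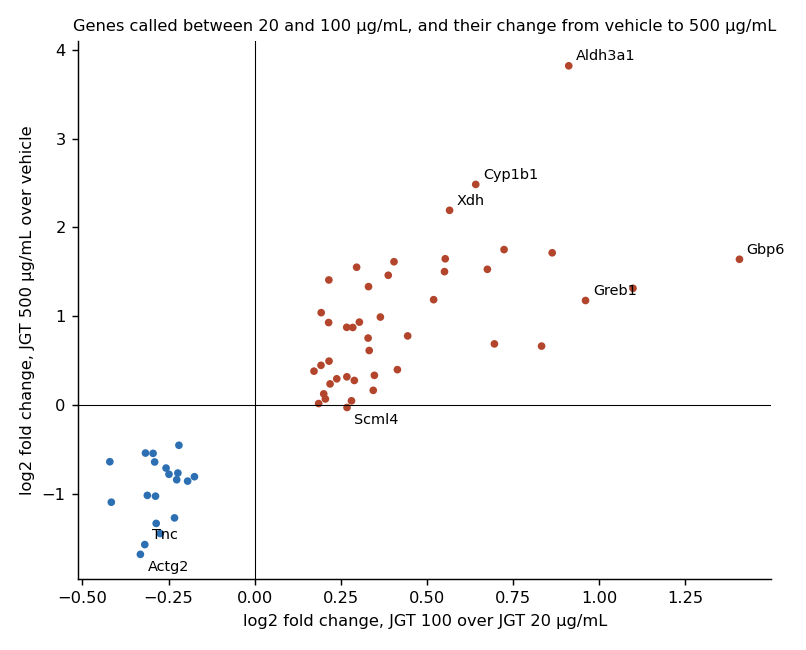
Each of the 62 called genes by its log2 fold change from 20 to 100 µg/mL and from vehicle to 500 µg/mL; red points were called higher and blue points lower at 100 µg/mL. All but Scml4 lie to the lower left or upper right of 0.

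The next step, from 100 to 500 µg/mL, is also 5-fold in dose and shares the JGT 100 libraries, so its values are set side by side without a correlation. Over all genes 9.05% were called higher and 10.7% lower in it. Of the 43 genes, 27 were higher again at 500 µg/mL, 10 were not called and 6 were lower. Of the 19, 17 were lower again, and Gfra1 and Fhl2 were not called. Whether a gene's 2 steps differed was tested as a contrast of its own, which called 0.705% of all genes with the second step more positive and 2.19% with it more negative. Among the 43 it was more positive for 10, among them Aldh3a1 (log2 0.91 and then 2.60), Cyp1b1 (0.64 and 1.66), Xdh (0.57 and 1.38) and Inhbb (0.22 and 0.97), and more negative for 8. Among the 19 it was more negative for 11, as in Tnc (−0.32 and −1.25), Tagln (−0.27 and −1.06) and Actg2 (−0.33 and −1.23). Without JGT 500 replicate 2 these counts were 11, 11 and 11. Thus Aldh3a1 and Cyp1b1 rose more over the second step, whereas for Pi15 (0.68 and 0.80; adjusted p of the difference 0.628), Lpl (0.55 and 0.74; 0.33) and Slc5a5 (0.72 and 0.57; 0.724) no difference between steps was called.

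Greb1, Thsd4, Dcn, Scml4, Chst11 and Socs2 rose to 100 µg/mL and were lower again at 500 µg/mL. Greb1 means were 5.76 ± 0.605, 8.71 ± 0.593, 16.99 ± 0.163 and 13.05 ± 0.606 CPM in vehicle and at 20, 100 and 500 µg/mL (SD, n = 3), and its fall over the second step was called (log2 −0.38, adjusted p = 0.000529). Decorin means were 199 ± 8.24, 197 ± 17.5, 239 ± 9.37 and 205 ± 14.2 CPM (second step −0.22, adjusted p = 0.011). Greb1 thus stayed above vehicle at 500 µg/mL (log2 1.18, adjusted p = 4.08e-10), whereas decorin at 500 µg/mL differed from vehicle by log2 0.05 (adjusted p = 0.572). Socs2, which dampens growth hormone signalling, had means of 77.9 ± 1.25, 88.6 ± 1.96 and 80.3 ± 1.99 CPM at the 3 doses. For Thsd4, Scml4 and Chst11 the second step was log2 −0.27, −0.30 and −0.13. In all 6 the difference between the steps was called, with adjusted p from 9.55e-07 (Greb1) to 0.00897 (Socs2), and without JGT 500 replicate 2 all 6 second steps were still called lower. The JGT 100 libraries enter both steps with opposite signs, so a high value at 100 µg/mL moves both.

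The division, NRF2, SRF and glucocorticoid lists are set side by side over the 3 dose steps; they were chosen after their values were seen, and their steps share libraries. The mitosis median was −0.15 from vehicle to 20 µg/mL, −0.18 from 20 to 100 µg/mL and −0.89 from 100 to 500 µg/mL. In that last step 39 of 40 members were called lower (background 10.7%). For DNA replication the 3 medians were −0.03, −0.13 and −0.43, with 25 of 34 called lower in the last step (background 10.7%). NRF2 targets had medians of 0.06, 0.11 and 0.33, with 28 of 38 called higher (background 9.05%) and 1 lower (10.7%) in the last step. The SRF list had −0.04, −0.09 and −0.29, with 16 of 21 called lower in the last step (background 10.7%). The glucocorticoid list changed sign between steps, at −0.04, 0.07 and −0.02. Without JGT 500 replicate 2 the last-step medians were −0.88, −0.43, 0.34, −0.31 and −0.05 in the order of these lists.

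Of the 40 lists 28 held no called gene. Over their 741 distinct tested genes 61 had an unadjusted edgeR p below 0.05, against 1091 of all 14461 tested genes. DESeq2 called 1 of the 741, the small heat shock protein gene Hspb8 (edgeR adjusted p = 0.0817). None was called by edgeR among 79 cytosolic ribosomal proteins (median −0.00200), 35 proteasome, 34 lysosome, 27 autophagy, 25 cholesterol-synthesis, 51 respiratory-chain, 32 citric acid cycle and fatty acid oxidation, 31 integrated stress response and 22 heat shock genes. Autophagy genes lay above 0 in 20 of 27 members, against 49.1% of all genes, with 7 higher (background 7.65%) and 2 lower (8.19%) without overlap. Of the 20 neuromuscular junction genes 17 lay above 0, with a median of 0.043 and none called. Without overlap 9 were higher (background 7.65%) and 2 lower (8.19%). Those 2, Colq (log2 −0.21, edgeR adjusted p = 0.145) and Ache (log2 −0.30, edgeR adjusted p = 0.152), had the smallest p-values of the list. The 13 mitochondrially encoded mRNAs had a median of 0.12 that ran from 0.0686 to 0.218 when 1 library was left out. Of the 13, 0 were higher (background 7.65%) and 1, mt-Co2, was lower (8.19%) without overlap. The other 12 lists without a call (immediate early, Notch, circadian clock, arrestin and glucose, glycolysis and hypoxia, mitochondrial biogenesis, aminoacyl-tRNA synthetase, endoplasmic reticulum chaperone, ribosome biogenesis, p53, imprinted and calcium-handling genes) had medians between −0.0351 and 0.0284. Sums of markers of other cell types overlapped between doses. The 12 immune and endothelial markers summed to 2.45 to 3.49 CPM at 20 µg/mL and 2.52 to 3.06 CPM at 100 µg/mL, with 2 without a count. The 12 osteoblast and chondrocyte markers summed to 1324 to 1401 CPM and 1290 to 1333 CPM, with 1 without a count. Most of this sum was 1 gene, Spp1, at a mean of 1234 CPM over the 6 libraries.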

How the data were processed

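Gene expression was measured by mRNA sequencing in 15 libraries of C2C12 cultures, 3 per group. Libraries were directional and read from both ends over 100 bp, per the labels' protocols. Tools named in the submitters' processing notes are RSEM 1.3.3, STAR 2.7.3a, Trim Galore 0.6.5 and FastQC 0.11.9, with the build GRCm38 (mm10). Neither the annotation nor the strand setting is given in the sources used here, so overlapping genes on opposite strands can share counts. The authors deposited expected counts per gene symbol, not normalized, of which 9.34% were not whole (tolerance 0.005); these were rounded. Each column was assigned to its sample by the code that both the table and the labels carry.

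Genes were kept with edgeR's filterByExpr (edgeR 4.0.16, R 4.3.3), leaving 14461 of 42807 symbols, 19006 of which were 0 throughout. Library sizes were scaled by TMM, and 1 quasi-likelihood fit with robust dispersions took all 15 libraries with a mean per group (common dispersion 0.00282, a coefficient of variation of 5.31%, 10 residual degrees of freedom). P-values are two-sided and adjusted by Benjamini-Hochberg over all tested genes. CPM are TMM-scaled, with SD of 3 libraries, and log2 fold changes carry the SE of the fit. Within a dose the mean chi-square per gene between pairs of libraries was 2.65 to 6.95, above the value near 1 of pure sampling noise, and none were merged. Groups of 3 against 3 cannot give an exact permutation p below 0.1 for a single value.

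The genes named are the 12 largest rises and 12 largest falls among called genes with a mean of at least 5 CPM, a proper symbol and no overlap between doses, and 17 fixed genes. Others were taken from the 3 members with the smallest p of the lists. Not all of those 3 are described: Fst, Mybpc1, Hsd11b1 and Cebpd are among those left out. Other called genes were named after their values were seen. The 40 gene lists, the 6 marker lists and the comparison itself were chosen with earlier results of these data known. Which lists are described was chosen after their results were seen. The test was tested on simulated counts for 14348 genes, where it recovered 40%, 88%, 96% and 100% of genes changed by log2 0.25, 0.5, 1 and 2, and 5.26% of its calls were unchanged genes. Alternatives covered scaling (RLE, upper quartile, library totals), DESeq2 1.42.0, limma-voom (limma 3.58.1), filters, the libraries in the fit, a replicate block, thinning, GC and length offsets, and leaving out each library. Gene positions are from GENCODE M21 on GRCm38, and promoter sequences from RefSeq on GRCm38.p6.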

Additional observations from a re-analysis of the deposited data

How the results depend on the processing

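None of the 62 called genes changed sign under any of the 27 alternatives, but counts of calls did move, and 20 of the 40 lists, with medians no larger than 0.0281 in size, changed the sign of their median. Genes called higher and lower between 20 and 100 µg/mL numbered 43 and 19 in the fit reported; 38 and 30 with library totals only, 48 and 35 with DESeq2, 68 and 22 with nearly no filter, 124 and 67 with the 6 libraries only, 19 and 3 with the 9 JGT libraries only, and 139 and 79 with the 12 libraries without JGT 500. Leaving out 1 library of any JGT dose gave 16 to 132 higher and 3 to 70 lower. Genes whose dose steps differed numbered 419, and 252 with the 9 JGT libraries only, and 202 to 2000 with 1 library left out; the lowest was without JGT 100 replicate 2 and the highest without JGT 500 replicate 2. The cause was not tested. Of the 62 genes, 16 were called under every alternative.

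Deviations of same-numbered JGT 20 and JGT 100 libraries from their group means correlated at −0.0864, −0.269 and 0.182. Only replicate 3 matched its own number best. With 3 libraries per dose these values cannot decide whether same-numbered libraries share an effect. With a replicate block 71 genes were called higher and 42 lower, against 43 and 19 without it. With the 6 libraries only the block gave 169 and 102, against 124 and 67. With the 9 JGT libraries only it gave 25 and 10 (261 for the difference between steps), against 19 and 3. With the block and GC offsets 74 and 39 were called, against 44 and 23 with GC offsets alone. GC values existed for 94.9% of tested genes.

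Among the other values recomputed, 325 gene results lost and 133 gained a call, and 78 list medians and 177 list counts moved by more than their spread or 1.5 times. At this depth and spread, changes of about log2 0.25 were found in 40% of simulated cases.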
